A study of Rattus norvegicus with 8 samples.

Results

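A set of 2562 genomic tiles of 1 kb was partly methylated in rat hypothalamus and lower in rat hippocampus. The tiles were chosen from 95276 eligible tiles on chromosomes 1 to 20, of which they make up 2.69%. A CpG dyad is a CpG with the calls of its listed strands added, and a tile was eligible when it held at least 3 dyads with 10 or more calls in all 8 libraries. Its level is the share of methylated calls over those dyads. A tile was kept when its hypothalamus mean was under 80%, at least 15 percentage points above the hippocampus mean, and when all 4 hypothalamus levels lay above all 4 hippocampus levels. The tissue difference in these tiles is therefore a description of what was chosen and carries no test. Without the limits on size and level, all 4 hypothalamus levels lay above all 4 hippocampus levels in 12.9% of eligible tiles and below them in 3.17%. A further 1591 tiles met the other limits with a hypothalamus mean of 80% or more, and 217 tiles met the mirrored rule, with hippocampus higher.

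The assay was reduced representation bisulfite sequencing (RRBS), in which DNA is cut with MspI at CCGG, short fragments are kept, and bisulfite turns unmethylated cytosine into a base read as T. The 8 libraries came from hippocampus and hypothalamus of male Sprague Dawley rats, 4 per tissue, that were aged 2 months at the start and were fed DHA (docosahexaenoic acid, of the omega-3 class of fatty acids) for 6 weeks. Every library of both groups is from DHA-fed animals, so the contrast is of tissue and not of diet. The treatment text shared by all labels also mentions fructose, while the labels of the samples themselves give DHA only. Each tissue was dissected whole, so a level averages over all its cells, and a different mix of cell types and a different level within cells cannot be told apart. Listed calls per library ranged from 178178404 to 625653602, lowest in hypothalamus 3.

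CpG methylation is placed and kept by DNA methyltransferases and is removed through oxidation by TET enzymes. In mammalian tissue most isolated CpGs are nearly fully methylated and dense CpG islands at promoters are nearly free of it, while intermediate levels are typical of distal regulatory DNA and of sites at which cell types of a tissue differ. Neurons also carry methylation outside CpG, mainly at CA, which is laid down after birth.

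Most of the tiles lay away from placed promoters. The 4 sequences that follow are promoter windows that overlap member tiles, shown because they are the places where the deposited positions could be tied to a gene and its sequence. Each runs 5′ to 3′ on the strand of the gene, from 250 bases before to 50 bases after the RefSeq start, in lower case from the GRCr8 table, and capitals mark the CpGs shared by all 8 libraries. These entered the level of the member tile, except the first capital CpG of Il17c, which lies before the tile's start. The windows were placed by content at chr20:10809996-10810295 (plus strand), chr5:62994478-62994777 (minus strand), chr4:207682952-207683251 (plus strand) and chr19:65956860-65957159 (plus strand) of build rn5.
LOC120098917: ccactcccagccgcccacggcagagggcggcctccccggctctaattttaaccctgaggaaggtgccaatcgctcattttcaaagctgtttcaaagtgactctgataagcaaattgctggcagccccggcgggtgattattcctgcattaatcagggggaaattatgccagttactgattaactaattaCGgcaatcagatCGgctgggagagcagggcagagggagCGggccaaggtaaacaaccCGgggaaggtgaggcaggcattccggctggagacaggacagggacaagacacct
Pigo: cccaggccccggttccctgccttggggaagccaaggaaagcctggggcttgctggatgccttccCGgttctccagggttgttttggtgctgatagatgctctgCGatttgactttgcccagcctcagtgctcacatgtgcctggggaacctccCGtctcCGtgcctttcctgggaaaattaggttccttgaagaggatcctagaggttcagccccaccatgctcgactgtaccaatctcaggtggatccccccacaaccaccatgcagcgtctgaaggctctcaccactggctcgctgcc
Cav3: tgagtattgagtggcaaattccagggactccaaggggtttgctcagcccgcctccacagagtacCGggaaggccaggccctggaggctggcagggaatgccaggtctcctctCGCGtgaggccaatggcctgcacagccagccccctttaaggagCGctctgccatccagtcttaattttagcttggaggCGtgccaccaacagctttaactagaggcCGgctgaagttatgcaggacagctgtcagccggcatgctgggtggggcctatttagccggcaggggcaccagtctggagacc
Il17c: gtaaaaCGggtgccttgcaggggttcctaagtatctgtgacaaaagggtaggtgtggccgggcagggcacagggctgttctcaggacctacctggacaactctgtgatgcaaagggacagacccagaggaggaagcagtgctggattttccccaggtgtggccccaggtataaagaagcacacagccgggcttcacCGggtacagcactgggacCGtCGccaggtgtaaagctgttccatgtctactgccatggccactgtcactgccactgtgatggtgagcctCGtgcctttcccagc
The capitals mark 4 of 12 CpGs in LOC120098917, 4 of 8 in Pigo, 6 of 9 in Cav3 and 5 of 7 in Il17c. All 23 windows that overlap member tiles hold the MspI site CCGG, which reads the same on both strands, as do 51.4% of all 33469 windows. A window can be placed only where RRBS lists cytosines, which is near such sites. The median number of CpGs was 8 in the 23 windows, 21 in all 8493 windows that could be placed, and 7 in all windows of the table.

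Over the 2562 tiles the median of the tissue means was 43.0% in hippocampus and 65.5% in hypothalamus. In hippocampus 1 to 4 the median tile level was 42.5%, 38.8%, 46.6% and 43.5%. In hypothalamus 1 to 4 it was 64.8%, 61.8%, 64.8% and 68.9%. The 4 hypothalamus medians thus lay together above the 4 hippocampus medians, as the rule requires tile by tile. Differences per tile ran from 15.0008 to 48.96 points with a median of 19.8, beside a median of 0.164 over all eligible tiles and 2.61 over the 28123 other tiles with a mean level of 20% to 80%, called middle-level tiles here. The gap between the lowest hypothalamus and the highest hippocampus library had a median of 8.71 points, and the median standard deviation was 4.54 points in hippocampus and 5.41 in hypothalamus (n = 4 each).

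**Figure D1:**
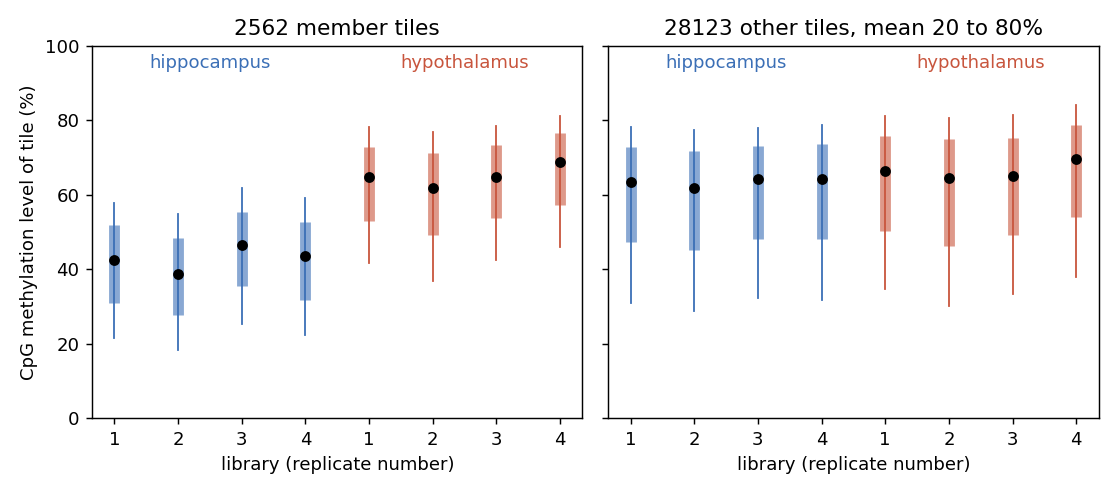
CpG methylation level per tile (%) in each of the 8 libraries, for the 2562 member tiles (left) and the 28123 other middle-level tiles (right); points are medians, thick bars the middle 50% and thin lines the 10th to 90th percentile of tiles. In the members the hippocampus medians lie between 38.8% and 46.6% and the hypothalamus medians between 61.8% and 68.9%, while in the other tiles they lie between 61.8% and 64.3% and between 64.5% and 69.7%.

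Libraries did not share the extremes evenly. Hippocampus 2 was the lowest hippocampus library in 59.4% of members and hippocampus 3 the highest in 58.5%. Hypothalamus 2 was the lowest hypothalamus library in 45.9% and hypothalamus 4 the highest in 50.7%. The same libraries were most often at the extremes in the other middle-level tiles, at 39.4%, 32.3%, 38.6% and 49.3%. Between libraries of the same replicate number the median difference over members was 20.4, 20.9, 17.0 and 23.4 points for numbers 1 to 4. A standard deviation above 10 points in either tissue was seen in 232 members (9.06%), beside 10.8% of the other middle-level tiles and 3.87% of all eligible tiles. A dyad that varies between libraries as a genotype would was held by 10 members (0.390%), beside 1.69% of the other middle-level tiles. The rule bears on both shares, since it asks for tissues that do not overlap.

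The commonest state among members was a middle level in hippocampus, and the limits of the rule shape these counts. They cap the hippocampus mean, which reached at most 64.6%. By hippocampus mean, 1321 members (51.6%) lay between 40% and 60%, 914 between 20% and 40%, 183 below 20% and 144 at 60% or more. Differences of 15 to 20 points made up 1320 members (51.5%), 738 differed by 20 to 25 points, 340 by 25 to 30, 151 by 30 to 40, and 13 by 40 or more. The 13 tiles of largest difference had a median of 30.8% in hippocampus and 75.9% in hypothalamus. Tiles with 3 or 4 dyads made up 44.7% of members and 41.4% of eligible tiles. The share of eligible tiles that were members was 2.91% with 3 or 4 dyads, 3.13% with 5 to 7, 2.73% with 8 to 11, 1.48% with 12 to 19 and 0.211% with 20 or more.

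**Figure D2:**
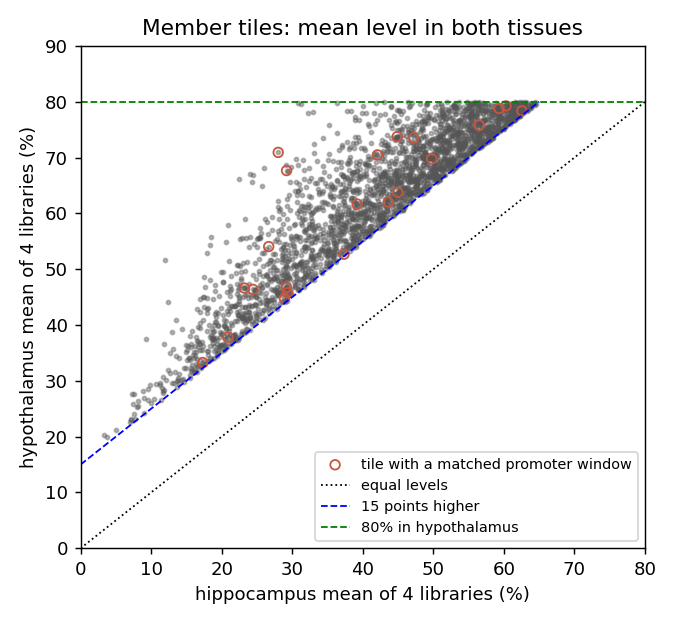
Hippocampus mean against hypothalamus mean of the 4 libraries per tissue (%), a point for each member tile; open circles are the 22 tiles with a placed promoter window, and the lines mark equal levels and the 15-point and 80% limits of the rule. Members fill the band between the limits, with 1615 of them between 60% and 80% in hypothalamus.

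The difference ran through the dyads of a tile and both strands. Of 14516 dyads in the members, 98.9% were higher in hypothalamus, 90.6% by at least 10 points, and 69.4% showed no overlap between tissues, beside 6.71% of dyads over all eligible tiles. In 2422 tiles (94.5%) every dyad was higher. These dyads are the ones that chose the tiles. The shared dyads of a tile spanned a median of 177 bases, beside 181 in all eligible tiles, so a tile level usually rests on a short stretch of its 1000 bases. Where both strands were listed in all libraries (1534 dyads), the median difference was 20.9 points on the plus strand and 21.1 on the minus strand.

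The member of largest difference was chr7:36157001-36158000, with 4 dyads. Its level in hippocampus 1 to 4 was 29.9%, 23.7%, 39.95% and 29.7%. In hypothalamus 1 to 4 it was 75.6%, 74.2%, 83.3% and 85.9%. Every hypothalamus library was more than 30 points above every hippocampus library, and the difference of the means was 48.96 ± 4.41 points (SE, n = 4 per tissue). At chr1:190780001-190781000 the difference of 48.3 ± 4.23 points rests on 11 dyads, the most of the 6 tiles of largest difference, and 286 to 1544 calls per library. Hippocampus 1 to 4 stood at 34.5%, 22.8%, 40.9% and 26.8% there, and hypothalamus 1 to 4 at 81.3%, 75.6%, 80.4% and 80.7%. All 11 dyads were higher in hypothalamus, by 41.8 to 54.8 points. The tile chr2:246332001-246333000 (5 dyads) went from 32.2% ± 6.21 to 78.0% ± 4.63 and chr6:6110001-6111000 (3 dyads) from 33.0% ± 1.49 to 78.2% ± 5.90 (SD, n = 4).

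The next in size were neighbours, chr12:25064001-25065000 and chr12:25065001-25066000, whose shared dyads lie at the facing ends of both tiles, from position 25064886 to 25065064. The first stood at 36.3% ± 9.04 in hippocampus and 79.8% ± 8.68 in hypothalamus over 8 dyads, and the second at 22.4% ± 2.99 and 66.2% ± 12.1 over 3 dyads (SD, n = 4). In the second, hypothalamus 2 stood at 49.4% and the other 3 hypothalamus libraries between 67.9% and 78.2%. The nearest placed start, that of Cux1, a homeodomain transcription factor, lies 85961 bases from the centre of the second tile; other genes may lie nearer. Of the 64 adjoining pairs of members, the next by mean difference was chr15:2380001-2381000 and chr15:2381001-2382000, at 34.7 ± 5.98 and 29.6 ± 3.79 points (SE). The placed start of the zinc finger gene Zfp503 lies 23403 and 24403 bases from their centres.

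At the low end, members were nearly unmethylated in hippocampus. The lowest hippocampus mean was 3.25% ± 2.32 at chr8:67712001-67713000, where hypothalamus 1 to 4 stood at 16.6%, 7.72%, 20.4% and 36.8%. Its lowest hypothalamus library was thus close to the highest hippocampus library, at 6.42%. At chr12:45721001-45722000 the means were 3.795% ± 2.01 and 19.9% ± 6.06, and at chr4:714001-715000 they were 5.08% ± 2.20 and 21.2% ± 3.14 (SD, n = 4). The fourth, chr6:87036001-87037000, has its centre 800 bases from the placed start of Nkx2-8, a homeobox gene. Hippocampus 1 to 4 stood at 5.27%, 4.12%, 8.51% and 9.98% there, and hypothalamus 1 to 4 at 18.0%, 19.0%, 27.05% and 26.6%, in all 7 dyads higher.

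The 11 members with 20 or more dyads differed by at most 20.5 points, with a median of 18.1. The tile with the most dyads was chr9:82353001-82354000, with 40 dyads and 1279 to 5209 calls per library. Hippocampus 1 to 4 stood at 14.3%, 15.8%, 17.3% and 18.0% and hypothalamus 1 to 4 at 35.02%, 37.0%, 33.9% and 34.8%. All 40 dyads were higher in hypothalamus and the standard deviations were 1.66 and 1.33 points. The placed start of Speg, which encodes a kinase of striated muscle, lies 12115 bases from its centre. The tiles chr9:42244001-42245000 (25 dyads), chr7:11158001-11159000 (23 dyads) and chr2:5574001-5575000 (23 dyads) differed by 20.5, 17.4 and 16.8 points. In the first of these 3, 23 of 25 dyads were higher.

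The limits of the rule cut through a continuum. Just inside 80% were chr18:79642001-79643000 and chr3:179041001-179042000, with hypothalamus means of 79.9997% and 79.9949%, and just outside were chr14:16258001-16259000 at 80.04% and chr12:26543001-26544000 at 80.05%. At 15 points, chr19:67326001-67327000 and chr6:36358001-36359000 lay inside and chr5:3936001-3937000 and chr8:44868001-44869000 outside. Their differences were 15.0008, 15.0008, 15 (just under before rounding) and 14.9989 points.

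A placed promoter window was held by 22 members (0.859%), beside 5.497% of all eligible tiles. The share was 1.38% of the other middle-level tiles and 0.314% of the tiles nearly full in hypothalamus. A tile centre within 5 kb of a placed start was found for 165 members (6.44%), beside 13.4% of eligible and 7.47% of middle-level tiles. These shares cover only windows that could be placed, which held a median of 21 CpGs. The rule bears on the shares of this paragraph, since a tile unmethylated in both tissues cannot meet it. Of the members, 41 (1.60%) were within 2 tiles of a tile of 20 or more dyads and a mean level under 10%. The share was 2.20% of middle-level tiles and 8.63% of eligible tiles. The share of eligible tiles counts the 4662 such dense tiles themselves, none of which is a member. By chromosome, members made up 1.99% (chromosome 2) to 3.68% (chromosome 12) of eligible tiles.

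Among the 22 promoter tiles, the largest difference was at LOC120098917, an uncharacterised locus whose window is shown above. Its tile chr20:10810001-10811000 had levels of 23.4%, 27.3%, 31.8% and 29.5% over hippocampus 1 to 4, whereas hypothalamus 1 to 4 stood at 66.9%, 60.6%, 84.4% and 71.8%. The tissues were far apart, by 42.9 ± 5.34 points (SE, n = 4 per tissue), and the 4 capital CpGs of the window differed by a mean of 42.7 points. Pigo encodes an enzyme of glycosylphosphatidylinositol anchor synthesis. Its tile stood at 30.9%, 22.8%, 31.2% and 21.7% in hippocampus and at 49.5%, 56.8%, 41.7% and 68.3% in hypothalamus, on 60 to 123 calls per library. Its hypothalamus libraries were widely spread, and the difference was 27.4 ± 6.22 points (SE).

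Cav3 encodes caveolin 3, a membrane protein of muscle. Hippocampus 1 to 4 were nearly equal there, at 49.1%, 49.7%, 50.3% and 49.9%, and hypothalamus 1 to 4 stood at 68.0%, 65.5%, 73.4% and 72.3%. The difference of 20.01 points fell to 13.6 when the 12 dyads were weighted equally, and 9 of the 12 were higher in hypothalamus. The 6 dyads in its window differed by a mean of 25.9 points. Il17c encodes a cytokine of epithelia. Its tile stood at 62.6% ± 3.61 in hippocampus and 78.4% ± 4.02 in hypothalamus (SD, n = 4), with dyads that differed by 1.63 to 40.6 points.

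Gabrr2 encodes a subunit of GABA receptors, Kcns3 a modulatory subunit of potassium channels, and Lrrc26 an auxiliary subunit of BK potassium channels. The tile of Gabrr2 differed by 19.0 ± 3.47 points, from 60.3% to 79.3%, that of Kcns3 by 16.4 ± 3.66, from 29.3% to 45.8%, and that of Lrrc26 by 16.0 ± 2.02, from 17.3% to 33.3% (SE, n = 4 per tissue). At Kcns3 2 of the 3 dyads were higher in hypothalamus, and the difference fell to 13.9 points when they were weighted equally. The dyads in the Lrrc26 window differed by a mean of 13.0 points. The microtubule-binding protein gene Eml1 differed by 26.3 ± 5.78 points, with hippocampus 2 at 32.4% and the other 3 hippocampus libraries between 47.8% and 55.1%. Krt26, a keratin gene, differed by 18.8 points, Zscan12, a zinc finger gene, by 17.6 and Smim41 by 15.9. Of the 22 tiles, 12 belong to LOC loci, LOC120098917 among them. No gene expression was analysed here.

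Tiles that adjoin a member, hold 3 or more dyads and are no members themselves had a median difference of 3.70 points (589 tiles), those at a distance of 2 tiles 0.563, and those more than 50 tiles away -0.0381. The rule takes the high differences out of these neighbours. Tiles with only 1 or 2 shared dyads were never read by the rule, and there the median was 12.7 points at a distance of 1 tile (429 tiles), 2.24 at 2 tiles and 0.378 beyond 50. Among neighbours of middle level the medians were larger: with 3 or more dyads 8.72 points at 1 tile, 4.83 at 2 tiles and 2.26 beyond 50, and with 1 or 2 dyads 17.6, 8.47 and 2.83. In those 429 tiles hippocampus 1 to 4 had median levels of 53.8%, 53.1%, 57.6% and 56.2%, and hypothalamus 1 to 4 had 72.2%, 69.1%, 71.4% and 75%. All 4 hypothalamus medians were above all 4 hippocampus medians. Tile by tile, 43.4% of the 429 showed no overlap between tissues with hypothalamus higher, beside 9.18% of all tiles with 1 or 2 dyads. The share was 28.7% of the 589, beside 10.5% of all non-member tiles with 3 or more. MspI fragments can cross a tile border, so some of these dyads may share reads with a member, which was not tested.

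**Figure D3:**
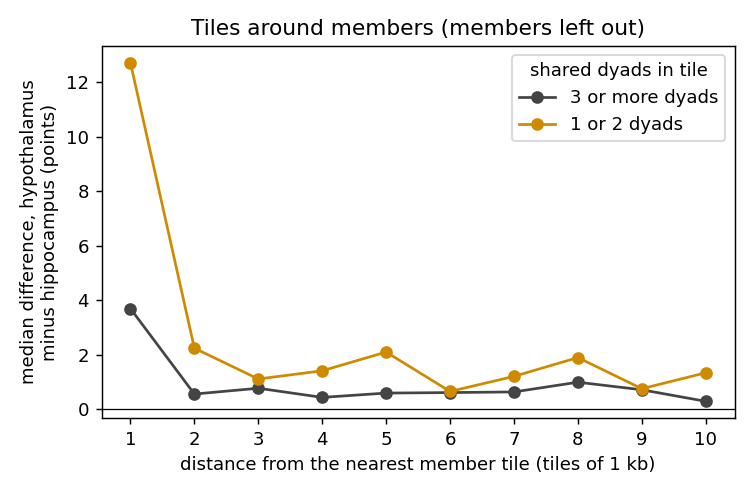
Median difference in CpG level, hypothalamus minus hippocampus (percentage points), of tiles that are no members against their distance from the nearest member tile in tiles of 1 kb, for tiles with 3 or more shared dyads and with 1 or 2. The medians are 3.70 and 12.7 points at 1 tile and 0.563 and 2.24 at 2 tiles.

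Adjoining members made 64 pairs and no run of 3. A run can be seen only where adjoining tiles are eligible. Beside the 2562 members, 589 adjoining tiles that are no members held 3 or more dyads. How far this limits the length of runs was not tested. An adjoining tile was a member for 128 members (4.996%), beside 0.753% of all eligible tiles and 1.01% of middle-level tiles. Both tiles of a pair may hold dyads of 1 MspI fragment that crosses their border, which was not tested. Another member lay within 10 tiles of 12.5% of members, beside 4.94% of all eligible tiles and 5.76% of middle-level tiles. A tile of the mirrored rule lay within 10 tiles of 3 members (0.117%), beside 0.689% of all eligible tiles and 1.21% of the other middle-level tiles. Both comparison shares count tiles of the mirrored rule as near themselves, which no member can be. They are therefore too high for a like comparison with the members.

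Dyads that entered no tile level give a measure that the rule did not use. Of 4308 such dyads inside members, 2030 (in 669 tiles) could be tested. Of those tested, 61.0% lacked hypothalamus 3 and 36.1% lacked hypothalamus 4. Their median level was 45.2%, 41.2%, 50% and 45.2% in hippocampus 1 to 4. In hypothalamus 1 to 4 it was 65.4%, 63.2%, 65.2% and 70.9%. The tissues did not overlap in these medians, which rest on different dyads, 791 of them in hypothalamus 3 and 1298 in hypothalamus 4. The median difference was 16.1 points, with 91.9% of dyads higher in hypothalamus. Over all dyads tested it was 1.43 points, with 58.2% higher, and in the other middle-level tiles 2.46 points, with 61.1% higher. The test called 580 of the 2030 (28.6%) higher in hypothalamus, beside 4.52% of all 221722 dyads tested, and 2 higher in hippocampus, beside 0.601%. In the other middle-level tiles 4.22% of such dyads were called higher in hypothalamus.

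**Figure D4:**
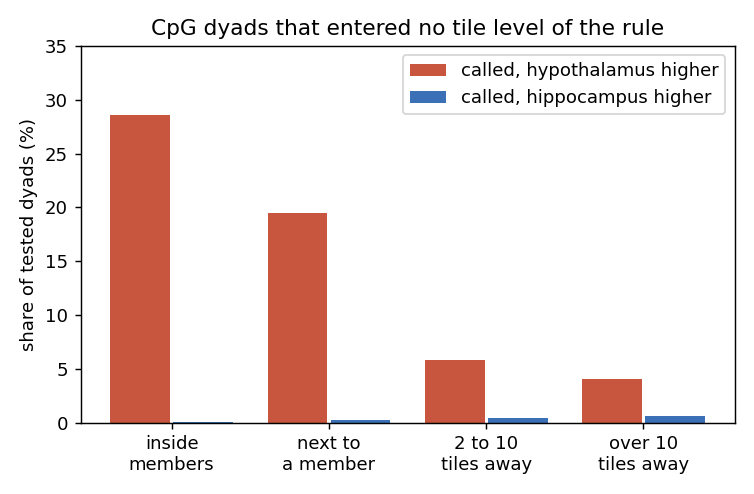
Share (%) of tested CpG dyads that entered no tile level and were called at a Benjamini-Hochberg adjusted p under 0.05 with a difference of at least 10 points, by distance from a member tile. Hypothalamus was called higher at 28.6% of dyads inside members, 19.5% in adjoining tiles, 5.78% at 2 to 10 tiles and 4.08% farther away.

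These dyads lay at a median of 86 bases from a dyad that chose the tile, so some can share fragments and reads with those. Fragments were not mapped here. Of the 855 that were more than 100 bases from any such dyad, 183 (21.4%) were called higher in hypothalamus, and the median over all 855 was 12.1 points. Dyads at that distance can still lie on the same fragment, so the split does not remove shared reads. In adjoining tiles 419 of 2154 (19.5%) were called. The number of calls inside members depended on the model: it was 194 with the replicate number as a term (1.33% of all dyads tested), 34 with limma on logit levels (0.361% of all), and 0 with the dispersion of each dyad alone (0 of all), where 801 dyads inside members (39.5%) had an unadjusted p under 0.05, beside 9.66% of all. Without hypothalamus 1 it was 371, beside 2.84% of all. At genotype-like dyads (low, middle or high in each library), the hippocampus and hypothalamus libraries numbered 1 shared their classes, as did those numbered 4, so the 8 libraries may not all be independent. With 1 library of each such pair left out, 342 were called (without hippocampus 1 and hypothalamus 4, beside 2.54% of all) or 294 (without hippocampus 4 and hypothalamus 1, beside 2.35%).

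The largest called difference was at position 101820661 of chromosome 13, where hippocampus 1 to 4 stood at 33.3%, 22.7%, 30.6% and 23.3% and hypothalamus 1, 2 and 4 at 91.7%, 93.1% and 70.0%, on 10 to 36 calls. It differed by 57.4 points (adjusted p = 1.38e-05, limma-moderated quasi-binomial test with Benjamini-Hochberg adjustment). The next were position 79132453 of chromosome 18, at 55.2 points (adjusted p = 0.000146, same test with limma), and 67617015 of chromosome 19, at 54.6 points (adjusted p = 4.53e-06, same test with limma). Hypothalamus libraries at the former ran from 46.2% to 90.9%, and at the latter from 76.9% to 85.7%. The call at the former was lost with limma on logit levels (adjusted p = 0.0568), and all 3 calls were lost with the dispersion of each dyad alone (adjusted p of 0.369 to 0.371, Benjamini-Hochberg, limma not used). Of the dyads called higher in hippocampus, position 34290751 of chromosome 19 fell by 41.2 points (adjusted p = 0.00244, same test with limma; 0.0901 with the replicate number as a term and 0.0859 with limma on logit levels). Position 229555866 of chromosome 2 differed by -10.02 points and rests on hippocampus 3, at 31.2%: without that library the difference was -2.94 points (adjusted p = 0.313, same test with limma).

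Methylation at CA was also no part of the rule. The CA cytosines lie in the same tiles, though, and can share fragments and reads with the dyads that chose them. How far they do was not tested. Its level varied between libraries far more than between tissues, from 1.15% to 4.24% in hippocampus and from 1.88% to 3.37% in hypothalamus over the members, and moved with the level at CC cytosines, often used as a gauge of unconverted calls (not tested here), which was highest in hippocampus 4 (1.85%) and hippocampus 3 (1.76%). In the test with tissue as the only term, 0 of 2525 tested members were called at an adjusted p under 0.05 (limma-moderated quasi-binomial test, Benjamini-Hochberg), beside 0.0142% of 91805 tiles, and 50 members (1.98%) had an unadjusted p under 0.05, beside 9.90% of all tiles and 4.48% of middle-level tiles. The median CA level of the members was 2.50% in hippocampus and 2.33% in hypothalamus. Over all tested tiles it was 2.64% and 1.82%, and over the middle-level tiles 2.84% and 2.15%.

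With the CC level of each library as a further term, the same test called 358 members (14.2%) higher in hypothalamus and 0 lower. Higher and lower here refer to the fitted tissue term, which holds the CC level fixed: in 10 of the 358 the mean CA level itself was lower in hypothalamus. Over all tiles 1.30% were called higher and 0.193% lower, and 1.89% of the middle-level tiles were called higher. Fits that left out 1 library called 96 members without hippocampus 2, beside 0.362% of all tiles in either direction, and up to 421 without hypothalamus 2, beside 2.08%. Without hippocampus 1 they called 214, beside 0.950%, and without hypothalamus 1 they called 225, beside 0.945%. None of the members or other tiles was called with the dispersion of each tile alone, where 702 members (27.8%) had an unadjusted p under 0.05, beside 7.01% of all tiles. With 1 library of each matching pair left out as above, 111 members were called (beside 0.527% of all tiles) or 97 (beside 0.351%). Members were called higher where the fit held the CC level as a term and shared the spread between tiles.

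Set against all eligible tiles of the same library, members were lower in CA methylation in hippocampus and higher in hypothalamus. The difference was -0.296, -0.331, -0.179 and -0.267 points in hippocampus 1 to 4. It was 0.510, 0.399, 0.538 and 0.6497 points in hypothalamus 1 to 4. The groups did not overlap, and the means were -0.268 ± 0.0649 and 0.524 ± 0.103 points (SD, n = 4). CT cytosines followed with -0.0518 ± 0.0225 and 0.179 ± 0.0318 points, also without overlap. At CC cytosines the values were smaller, -0.0156 ± 0.00454 and 0.0104 ± 0.0130 points, and did not overlap either. Set against the middle-level tiles of the same library, the members' difference at CA was -0.487 ± 0.0696 points in hippocampus and 0.184 ± 0.0611 in hypothalamus, and at CT -0.141 ± 0.0259 and 0.0511 ± 0.0146, both without overlap. At CC it was -0.0284 ± 0.00252 and -0.00375 ± 0.0124, also without overlap. Members and eligible tiles also differ in the make-up of their listed cytosines, with CG at 12.2% and 14.7%, and the part of this in the result was not tested.

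**Figure D5:**
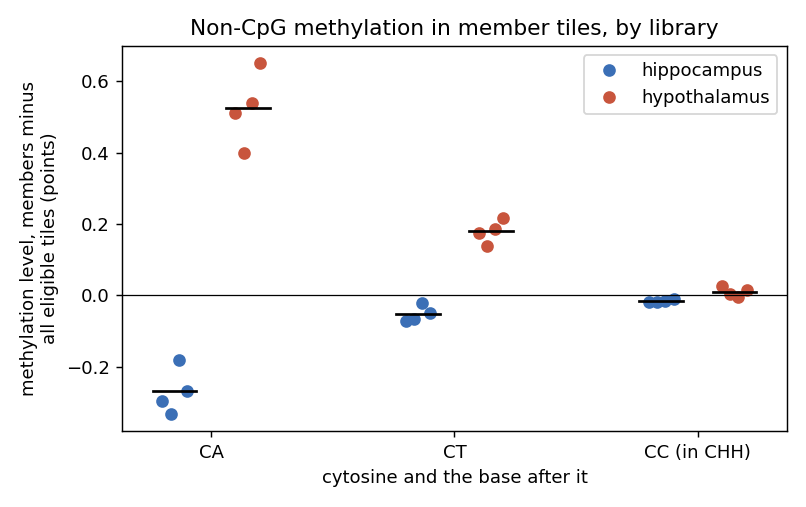
Methylation level of non-CpG cytosines in the member tiles minus that in all eligible tiles of the same library (percentage points), by the base that follows; points are the 8 libraries and bars the means of 4. At CA the hippocampus libraries lie between -0.331 and -0.179 and the hypothalamus libraries between 0.399 and 0.6497.

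Of the members called with the CC term, 3 with the largest CA difference are given, chosen after their values were seen. At chr12:29337001-29338000 hippocampus 1 to 4 had CA levels of 3.60%, 2.36%, 5.43% and 6.84%, and hypothalamus 1 to 4 had 9.05%, 9.89%, 8.89% and 18.3% (adjusted p = 0.000116, limma-moderated quasi-binomial test). At chr14:34560001-34561000 it was 5.01% ± 1.75 and 11.96% ± 1.72 (SD; adjusted p = 8.88e-06, same test with limma), and at chr18:61202001-61203000 it was 4.28% ± 0.972 and 9.31% ± 3.61 (adjusted p = 0.000323, same test with limma). None of the 3 passed without the CC term, with adjusted p = 0.497 in each (same test with limma). The tissues did not overlap in any of the 3, and their CpG levels went from 50.03% to 75.3%, from 62.9% to 79.1% and from 37.6% to 57.0%. Called members had a median CpG difference of 21.8 points, beside 19.4 in the other members tested.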

How the data were processed

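RRBS calls of 8 libraries were analysed. The authors deposited 2 counts per listed cytosine and strand, methylated calls and all calls, with their fraction, which was not used. Bowtie and build rn5 are named per the submitters' processing notes; the methylation caller, like read trimming and the handling of duplicate reads, is not given in the sources used here. Every listed position held at least 10 calls, so a position missing from a library had either fewer calls or none. The listed strands of a CpG were summed to 1 dyad.

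The member tiles and all lists were chosen with earlier results of these data known. Regions were named by size of difference, lowest hippocampus mean, number of dyads, adjoining runs and closeness to the limits of the rule, and dyads or CA tiles by their largest called difference. The plan named genes only with a reference of the files' build, which was not used here. Chosen after the data were seen were the placing of promoter windows and its settings, the genes and sequences shown, the middle-level comparison set, the split at 100 bases, the limits of the genotype-like classes, and the 3 CA tiles.

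Promoter windows of 300 bases (RefSeq, GRCr8) were placed in the deposited coordinates where the pattern of listed cytosines, their strand and next bases matched at 98% or more of at least 20 listed positions, at 1 place and on the same chromosome. This placed 8493 of 33469 windows.

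CpG dyads that entered no tile level, with 10 or more calls in at least 3 libraries of each tissue and a mean of 5% to 95%, were tested by quasi-binomial logistic regression of the methylated and unmethylated counts on tissue alone. The same model was run on CA calls summed per eligible tile (3 or more CA cytosines, mean level of 1% or more). The Pearson dispersion was moderated with limma squeezeVar (limma 3.58.1, R 4.3.3; fits in Python 3.11.15 with numpy 2.4.6) and kept at 1 or above, followed by an F test and Benjamini-Hochberg adjustment over all dyads or tiles tested. Calls needed an adjusted p below 0.05 and, for dyads, tissue means 10 or more points apart.

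A trend of the dispersion on the information of each dyad or tile was added to the moderation after the fit without it had been run on these data, because that fit made too many false calls on simulated data. The simulation was afterwards changed to a dispersion that is equal at all depths, on which false calls were near or below the nominal share. On simulated data whose dispersion grew with depth they stayed above it. The real median dispersion rose from 1.03 in the dyads of least information to 1.26 in those of most, and from 3.66 to 8.33 in the CA tiles, so the adjusted p-values may be too small. Results without the trend are given among the alternatives.

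The labels name no animals. For 1404 dyads that vary as a genotype would (low, middle or high), hippocampus 1 shared its class with hypothalamus 1 in 98.2% of cases, and hippocampus 4 with hypothalamus 4 in 98.8%, against 38.9% to 59.8% for all other pairs of libraries. The numbers 1 and 4 may therefore pair libraries, while 2 and 3 did not match (52.9% and 51.8%). Fits with 1 library of each matching pair left out were added after the data were seen. The main tests treat the 8 libraries as independent, and their p-values measure only the spread between these libraries.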

Additional observations from a re-analysis of the deposited data

Results flagged for a closer look

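In 97 groups of 4 libraries at the named tiles and dyads, the gap of the highest or lowest library to the nearest other, as a share of the range of its group, passed Dixon's 95% critical value in 6, where chance gives about 1 in 20, or 4.85 groups. At chr1:190780001-190781000, hypothalamus 2 stood at 75.6% below 3 libraries at 80.4% to 81.3%. At chr4:714001-715000, hippocampus 4 stood at 8.38% above 3 at 3.87% to 4.19%. At the tile of LOC120100036, chr1:267808001-267809000, hippocampus 4 stood at 24.5% above 3 at 19.3% to 20.04%. At the tile of Il17c, chr19:65957001-65958000, hypothalamus 3 stood at 84.3% above 3 at 75.9% to 77.1%. Just outside the 15-point limit, hippocampus 4 stood at 50.9% at chr5:3936001-3937000 and hippocampus 2 at 44.9% at chr8:44868001-44869000.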

How the results depend on the processing

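The number of member tiles (2562) follows the limits: 1463 with 20 calls per dyad, 1416 with 5 dyads per tile, 4347 at 10 points, 1242 at 20 points, and 2295 to 3232 without 1 library. Over the same 2562 tiles the median difference was 18.6 to 20.97 points without 1 library. That of adjoining non-member tiles was 3.10 to 4.61, against 12.7 for tiles with 1 or 2 dyads. Of 449 alternative differences at 46 named tiles none changed sign and 5 moved by more than the spread between libraries. Leaving out 1 library could not change a sign there, because the tissues did not overlap in any named tile.

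Dyads that the rule did not use and that were called higher inside members numbered 580, with 0 at the dispersion of each dyad alone, 34 by limma on logit levels, 345 of 865 at a minimum of 20 calls (beside 6.42% of all dyads), 604 without the trend in the moderation (4.76%), and 371 to 583 without 1 library (2.84% to 4.64%). With 1 library of each genotype-matched pair left out they numbered 294 and 342, members for CA 0 in both cases, and with the CC term 97 and 111. For CA methylation 0 members were called, 358 with the CC level as a term (370 without the trend), and 0 to 4 without 1 library. The 4, without hippocampus 2, were lower in hypothalamus, in a fit that called 3614 tiles in all. With the CC term, 0 were called at the dispersion of each tile alone and 96 to 421 without 1 library. Of 55 alternative values at the 5 named dyads none changed sign and 15 lost the call, among them all 5 with the dispersion of each dyad alone (adjusted p of 0.369 to 0.646 by the quasi-binomial test with Benjamini-Hochberg adjustment, limma not used). The cause of these changes was not tested. The moderation trend, the fits without matched libraries and the alternatives to the fit with the CC term were chosen after seeing the data.

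With the replicate number as a block, 194 unused dyads and 0 members for CA were called. Deviations from the tissue means correlated at 0.157, 0.0700, 0.0884 and 0.160 over eligible tiles for same-numbered libraries. There, each library correlated best with its own number. Over the members this failed for number 2: hippocampus 2 correlated at 0.0509 with hypothalamus 4 and at 0.00572 with hypothalamus 2. Since 2 pairs were under 0.1 over eligible tiles, and only numbers 1 and 4 shared classes at genotype-like dyads, the numbers pair part of the libraries at most. Hypothalamus 3 and 4 had the lowest depth in members, with a median of 24 and 36.9 calls per dyad.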
